A study of Mus musculus with 4 samples.

Results

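Growth hormone, prolactin and leptin act on the liver through 3 receptors of the cytokine receptor class and a shared signalling chain. That chain was followed here in 10 genes, picked by symbol from the 21827 gene entries of a male and female liver transcriptome. They comprise the receptor genes Ghr, Prlr and Lepr, the kinase and transcription factor genes Jak2, Stat5a and Stat5b, and the feedback inhibitor genes Cish, Socs2, Socs3 and Ptpn6. All 10 symbols had an entry with a level in both sexes, so no member was lost to a filter on low values. Livers came from untreated male and female mice of the outbred CD-1 stock at 8 weeks of age. RNA of 12 livers per sex was combined into 2 pools of 6, and the 4 pools were sequenced after poly-A selection with a strand-specific method. The table gives 1 value per gene and sex, with both pools combined. The spread between pools could therefore not be computed. Every level, fold and adjusted p-value of a single gene below is the authors' own, except folds and intervals derived from implied reads.

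These receptors have no enzyme activity of their own. A bound hormone brings the receptor-associated kinase JAK2 into action, JAK2 phosphorylates the receptor and the transcription factors STAT5A and STAT5B, and the STATs move to the nucleus. STAT5 in turn switches on genes of the CIS and SOCS family, whose products bind receptor or kinase and shut the signal down, and the phosphatase SHP-1, the product of Ptpn6, removes the phosphate groups. In rodents the pituitary releases growth hormone in strong pulses in males and more evenly in females, and STAT5B is known as a main mediator of sex-dependent gene expression in mouse liver. Leptin is a fat tissue hormone, and its receptor occurs in a long signalling form and in short forms made by alternative splicing.

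Levels are log2 RPKM, that is, log2 of the reads per kilobase of transcript, scaled to library size. They can be compared between genes where the entry covers the transcript. A gene was called where the authors' adjusted p-value for the sex difference was under 0.05, with the direction of their normalized log2 ratio of male over female. Of 21827 entries, 13762 carried a usable sex ratio (the compared genes), and 6590 lay at the lowest value of the scale in both sexes. Taking that lowest value as 1 read, the levels implied 11.2 M reads for male and 14.7 M reads for female liver.

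By this criterion 7 of the 10 genes differed between the sexes, 5 of them higher in female liver (Prlr, Lepr, Stat5a, Socs2 and Ptpn6) and 2 higher in male liver (Ghr and Cish). Among all compared genes, 17.4% were called, 10.2% as higher in female and 7.21% as higher in male liver. The genes were chosen with earlier results of these data known, so the excess over that background is a description. At the authors' own threshold for a sex-biased gene, an adjusted p-value under 0.01, 3 genes remained, namely Prlr, Lepr and Socs2, all higher in female liver. At that threshold 10.2% of compared genes were called, 6.05% as higher in female and 4.16% as higher in male liver. The same 3 genes also had a fold of at least 1.5, as did 13.4% of compared genes. Ghr, Cish, Stat5a and Ptpn6, with adjusted p-values between 0.0226 and 0.0423 in the authors' deposited table, did not reach the 0.01 threshold.

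**Figure D1:**
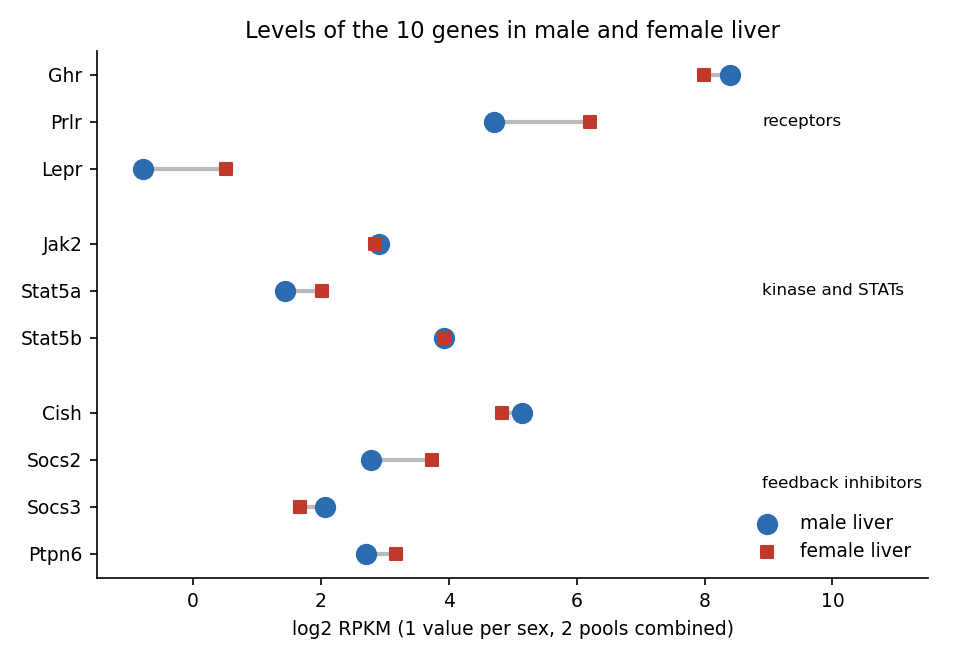
Log2 RPKM of the 10 genes in male liver (circles) and female liver (squares), 1 value per sex with 2 pools combined and no error bar, ordered by role. Prlr (4.70 in male, 6.20 in female) and Lepr (-0.78 and 0.52) show the widest gaps, and the Stat5b symbols coincide at 3.92.

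The 3 receptors ranged from one of the most abundant liver transcripts to one below the authors' limit for liver-expressed genes, and they did not differ between the sexes in the same direction. Ghr, which encodes the growth hormone receptor (chromosome 15, 3267760 to 3533230, minus strand, mm9), had a log2 RPKM of 8.39 in male and 7.99 in female liver, or 336 and 255 RPKM. Its level exceeded that of 98.8% of the compared genes in male and 98.5% in female liver. The male level exceeded the female level 1.30-fold in the authors' deposited table (normalized log2 ratio 0.38, adjusted p = 0.0423). About 15777 reads in male and 15656 in female liver lay behind these levels, and counting alone allows 1.29-fold to 1.35-fold (exact 95% Clopper-Pearson interval). Such intervals cover counting error only, not differences between animals or pools. The difference was small for a called gene. By size of ratio Ghr ranked 43 among the 44 male-higher genes that were at least as abundant in male liver.

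Prlr, the prolactin receptor gene (chromosome 15, 10106993 to 10266775, plus strand, mm9), had a log2 RPKM of 4.70 in male and 6.20 in female liver, or 26.1 and 73.7 RPKM. The female level exceeded the male level 2.97-fold in the authors' deposited table (normalized log2 ratio -1.57, adjusted p = 2.7e-16). It had the lowest adjusted p-value and the largest ratio of the 10 genes. Among the 114 female-higher genes that were at least as abundant in female liver, Prlr ranked 23 by size of ratio. Because Ghr was higher in male and Prlr higher in female liver, the distance between both transcripts changed with sex. The RPKM of Ghr was 12.9 times that of Prlr in male liver and 3.46 times in female liver.

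Lepr, the leptin receptor gene (chromosome 4, 101390486 to 101487957, plus strand, mm9), was the least abundant of the 10 genes in both sexes. Its log2 RPKM was -0.78 in male and 0.52 in female liver, or 0.584 and 1.43 RPKM, below the authors' limit of 1 (log2 RPKM) for a liver-expressed gene. The female level exceeded the male level 2.58-fold in the authors' deposited table (normalized log2 ratio -1.37, adjusted p = 0.00036). These levels correspond to about 6.57 reads per kilobase of transcript in male and 21.1 in female liver, which limits the precision of the fold. The table has 1 entry for the gene, so the long and short receptor forms were not separated. Leprot, whose gene lies next to Lepr and encodes a small membrane protein that affects leptin receptor display at the cell surface, had a log2 RPKM of 2.58 in male and 2.47 in female liver and was not called (adjusted p = 0.932 in the authors' deposited table). The genes of the hormones themselves, Gh, Prl and Lep, lay at the lowest value of the scale in both sexes.

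**Figure D2:**
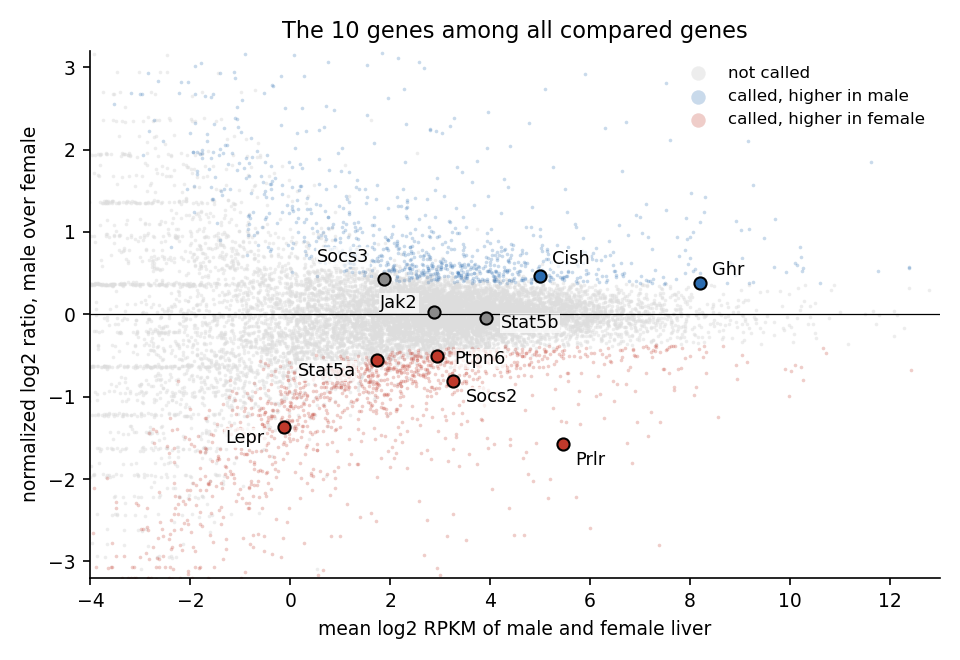
Normalized log2 ratio of male over female (vertical) against the mean log2 RPKM of both sexes (horizontal) for 13758 compared genes with a level, 398 of which lie outside the axes; blue and red points were called as higher in male and in female liver, and the 10 genes are outlined. Prlr at -1.57 lies among the female-higher genes, whereas Jak2 (0.03) and Stat5b (-0.04) lie at the centre.

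Of the kinase and the STATs, Stat5a was called, as higher in female liver, and Jak2 and Stat5b were not. Jak2, the gene of the kinase that all 3 receptors use (chromosome 19, 29326318 to 29387570, plus strand, mm9), had a log2 RPKM of 2.91 in male and 2.85 in female liver and was not called (1.02-fold, adjusted p = 0.9 in the authors' deposited table). About 418 reads in male and 524 in female liver lay behind these values. Their scaled ratio of 1.04 towards male liver had an exact 95% interval that reached from 0.916 to 1.19. That interval includes equal levels and covers counting error only.

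Stat5b and Stat5a encode closely related factors and are neighbours on chromosome 11, transcribed away from each other and separated by 8765 bases with no other entry between them. Stat5b (100642045 to 100711899, minus strand, mm9) had a log2 RPKM of 3.92 in both sexes and was not called (1.03-fold, adjusted p = 0.827 in the authors' deposited table). Stat5a (100720665 to 100746483, plus strand, mm9) had a log2 RPKM of 1.44 in male and 2.02 in female liver. The female level exceeded the male level 1.46-fold in the authors' deposited table (normalized log2 ratio -0.55, adjusted p = 0.0406), and counting alone, from about 119 and 232 reads, allows 1.19-fold to 1.87-fold (exact 95% interval). Stat5b was the more abundant of the pair, by 5.58 times in RPKM in male and 3.75 times in female liver. Whether the sex differences of these neighbours differ from each other was not tested. The last 72 bases of the Stat5a entry overlap the Stat3 entry on the opposite strand, and the sources used here do not say whether reads were counted by strand. Stat3 had a log2 RPKM of 4.92 in male and 4.81 in female liver and was not called (adjusted p = 0.342 in the authors' deposited table). The Stat3 entry spans 4831 bases, and how much of the gene it covers was not checked.

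The 4 feedback inhibitors split between the sexes, and the pair best known as STAT5 targets in liver lay on opposite sides. Cish, which encodes CIS, a protein that occupies STAT5 docking sites on the receptor (chromosome 9, 107198357 to 107199365, plus strand, mm9), had a log2 RPKM of 5.14 in male and 4.84 in female liver. The male level exceeded the female level 1.38-fold in the authors' deposited table (normalized log2 ratio 0.46, adjusted p = 0.0226). The plain difference of the levels was smaller, at 0.30 on the log2 scale. The Cish entry spans 1009 bases, 14.9% of the span of the gene in the GENCODE M21 annotation (on GRCm38, used for its length only), so its level describes a part of the gene.

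Socs2, which encodes the SOCS protein known for restraining growth hormone action and body growth (chromosome 10, 94847996 to 94875743, minus strand, mm9), had a log2 RPKM of 2.79 in male and 3.74 in female liver, or 6.92 and 13.4 RPKM. The female level exceeded the male level 1.75-fold in the authors' deposited table (normalized log2 ratio -0.81, adjusted p = 0.000189), and the plain difference of levels was -0.95. Counting alone, from about 330 and 835 reads, allows 1.70-fold to 2.20-fold (exact 95% interval). The opposite directions narrowed the gap between both inhibitors. The RPKM of Cish was 5.12 times that of Socs2 in male and 2.14 times in female liver. Since the Cish level describes a part of the gene, the size of these multiples is uncertain.

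Socs3, which encodes the inhibitor induced by leptin and by interleukin-6 class cytokines (chromosome 11, 117827401 to 117830680, minus strand, mm9), had a log2 RPKM of 2.06 in male and 1.67 in female liver. It was not called (1.35-fold towards male liver, adjusted p = 0.0846 in the authors' deposited table), although its fold lay between those of Ghr and Cish. The implied reads per kilobase were 46.9 in both sexes, against 398 in male and 422 in female liver for Cish, and 3779 and 3750 for Ghr. Ptpn6, the gene of the phosphatase SHP-1 (chromosome 6, 124670725 to 124688643, minus strand, mm9), had a log2 RPKM of 2.71 in male and 3.17 in female liver. The female level exceeded the male level 1.42-fold in the authors' deposited table (normalized log2 ratio -0.50, adjusted p = 0.0351), and counting alone, from about 170 and 306 reads, allows 1.14-fold to 1.67-fold (exact 95% interval).

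STAT5 binds the palindromic letters TTCNNNGAA, and promoter windows were searched for them because members of the CIS and SOCS family are known STAT5 targets. RefSeq promoter windows (GRCm38.p6, 250 bases before to 50 after an annotated start site) matched 9 of the 10 genes by symbol, all except Socs2, with 15 windows in all. The pattern reads the same on both strands, so each search covers both. It occurred in 3 of these windows, 1 each of Cish, Socs3 and Prlr, against 8.30% of all 32851 windows. The Cish window holds 2 copies, as do 0.457% of all windows. The 3 windows are shown 5′ to 3′ on the strand of the gene, with each match in capitals.
Cish: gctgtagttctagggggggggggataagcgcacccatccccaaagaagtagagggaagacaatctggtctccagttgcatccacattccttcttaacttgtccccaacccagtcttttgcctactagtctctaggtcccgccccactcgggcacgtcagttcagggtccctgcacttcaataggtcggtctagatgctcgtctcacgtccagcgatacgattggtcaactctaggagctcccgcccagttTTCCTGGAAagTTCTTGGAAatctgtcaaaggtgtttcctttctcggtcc
Socs3: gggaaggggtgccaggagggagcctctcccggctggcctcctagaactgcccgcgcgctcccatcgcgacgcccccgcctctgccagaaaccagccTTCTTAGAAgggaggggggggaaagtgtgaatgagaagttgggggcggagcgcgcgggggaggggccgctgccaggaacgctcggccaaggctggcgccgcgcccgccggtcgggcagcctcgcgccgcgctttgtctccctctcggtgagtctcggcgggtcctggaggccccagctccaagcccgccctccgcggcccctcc
Prlr: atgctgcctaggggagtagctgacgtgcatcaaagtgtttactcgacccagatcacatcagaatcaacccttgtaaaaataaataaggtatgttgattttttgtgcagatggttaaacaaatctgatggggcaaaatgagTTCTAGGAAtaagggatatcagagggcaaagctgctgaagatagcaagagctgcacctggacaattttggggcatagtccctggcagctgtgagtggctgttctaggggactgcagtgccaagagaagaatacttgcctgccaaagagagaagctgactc
The Cish window lies at chr9:107296409-107296708 on the plus strand, and its copies, TTCCTGGAA and TTCTTGGAA, begin at bases 1 and 12 counted from the start site. The Socs3 window lies at chr11:117969317-117969616 on the minus strand, and its copy TTCTTAGAA begins at base -154. The Prlr window, at chr15:10223656-10223955 on the plus strand, belongs to 1 of 3 annotated start sites of the gene, and its copy TTCTAGGAA begins at base -110. Cish was called as higher in male liver, Prlr as higher in female liver, and Socs3 was not called, so the genes that hold the letters did not share a direction. A match describes the letters of the window and is no evidence of binding in these livers.

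The counts and medians by role were as follows. The 3 receptors were all called, 2 as higher in female and 1 as higher in male liver, and their median log2 ratio was -1.37. Of Jak2, Stat5a and Stat5b, 1 was called, and the median was -0.04. Of the 4 inhibitors, 2 were higher in female liver, 1 was higher in male liver and Socs3 was not called, with a median of -0.04 between ratios of 0.46, 0.43, -0.50 and -0.81 that lie on both sides of 0. Over all compared genes 17.4% were called, and the median was -0.02. At an adjusted p under 0.01, 2 receptors, 0 of Jak2, Stat5a and Stat5b, and 1 inhibitor remained, all higher in female liver. At that threshold 10.2% of compared genes were called. Differences between the role groups were not tested, and with 3 or 4 genes each the medians rest on single genes. Without Lepr, which is below the liver-expressed limit, the receptor median was -0.60.

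**Figure D3:**
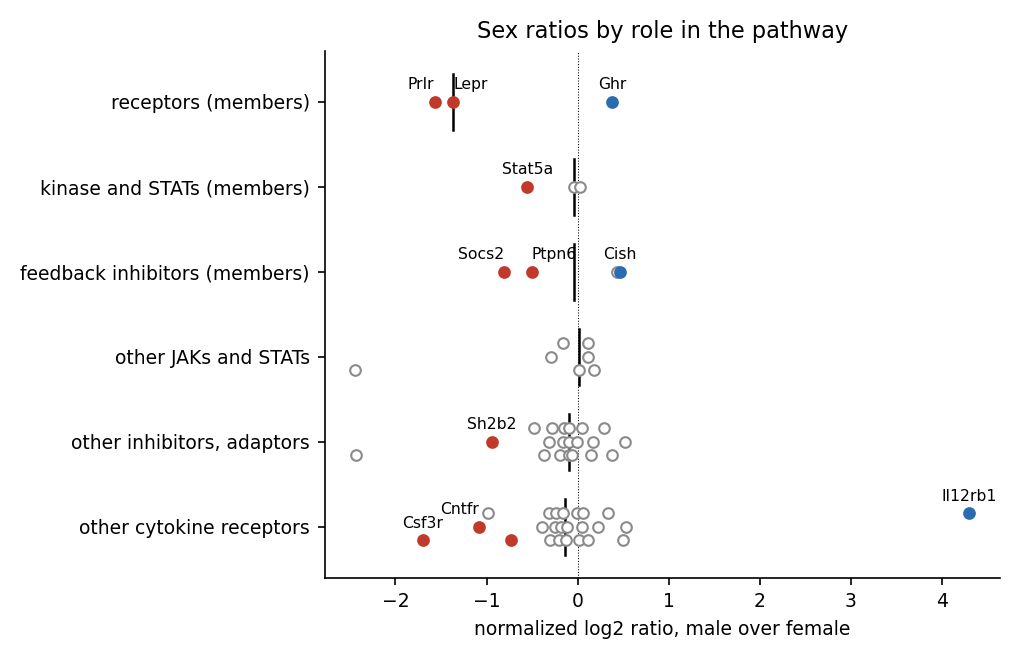
Normalized log2 ratio of male over female for the 10 genes by role and for 3 lists of related genes; filled points were called (blue higher in male, red higher in female), open points were not, and vertical bars are list medians. The receptors Prlr and Lepr lie at -1.57 and -1.37, while all 7 other JAK and STAT genes are open; Il12rb1 had no implied reads in female liver, so its plotted ratio has no fixed size.

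The other genes of the pathway were read from lists of related genes. Of 51 compared genes on the lists of other kinases and STATs, other inhibitors and adaptors, and other cytokine receptors, 4 were higher in female and 1 in male liver, and the median log2 ratio was -0.12. Over all compared genes 10.2% were called as higher in female and 7.21% as higher in male liver, so these counts are near or below that background. All 5 were below the liver-expressed limit in both sexes. Among the other JAK and STAT genes none of 7 was called, with Jak1 (log2 RPKM 5.07 in male and 5.0 in female liver), Stat3 and Stat2 (4.23 and 4.31) as the most abundant. Of 20 other inhibitors and adaptors, Sh2b2, which encodes an adaptor that binds JAK2, was called, with a 1.92-fold higher female level (adjusted p = 0.048 in the authors' deposited table). The most abundant of this list, the phosphatase gene Ptprf (5.11 in male and 5.0 in female liver, log2 RPKM), the SOCS gene Socs4 (4.79 and 4.64) and the phosphatase gene Ptpn2 (4.13 and 4.34), were not called. Socs5 missed the threshold (1.39-fold towards female liver, adjusted p = 0.0544 in the authors' deposited table).

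Among 27 compared cytokine receptor genes, Ghr had the highest level in both sexes. Prlr ranked 5 in male and 3 in female liver, where it stood behind Ghr and Lifr, the leukemia inhibitory factor receptor gene (6.69 in male and 6.94 in female liver, log2 RPKM, not called). Lepr ranked 24 in male and 20 in female liver. The next most abundant receptor genes, Il15ra (5.72 and 5.43) and Il6st, the shared signalling chain of interleukin-6 class cytokines (5.36 and 5.24), were not called either. The authors' deposited table puts 3 other receptors at a higher level in female liver, namely Csf3r, for granulocyte colony-stimulating factor (3.25-fold, adjusted p = 0.0032), Cntfr, for ciliary neurotrophic factor (2.12-fold, adjusted p = 0.0209), and Il10ra, for interleukin-10 (1.66-fold, adjusted p = 0.0187). Il12rb1, an interleukin-12 receptor gene, had no implied reads in female and at least 14 in male liver. With the female sum set to 3 reads and the male count fixed at 14, its male level was 6.11-fold higher (adjusted p = 9.19e-05 in the authors' deposited table). That fold does not cover counting error of the male reads. Receptor genes past the liver-expressed limit reached down to Il10rb, which ranked 14 of the 27 in both sexes. Of these, Ghr and Prlr were called, and Ghr was not called at an adjusted p under 0.01. Over all 9735 liver-expressed compared genes, 779 were called as higher in male and 895 as higher in female liver, so the 2 calls are no excess.

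**Figure D4:**
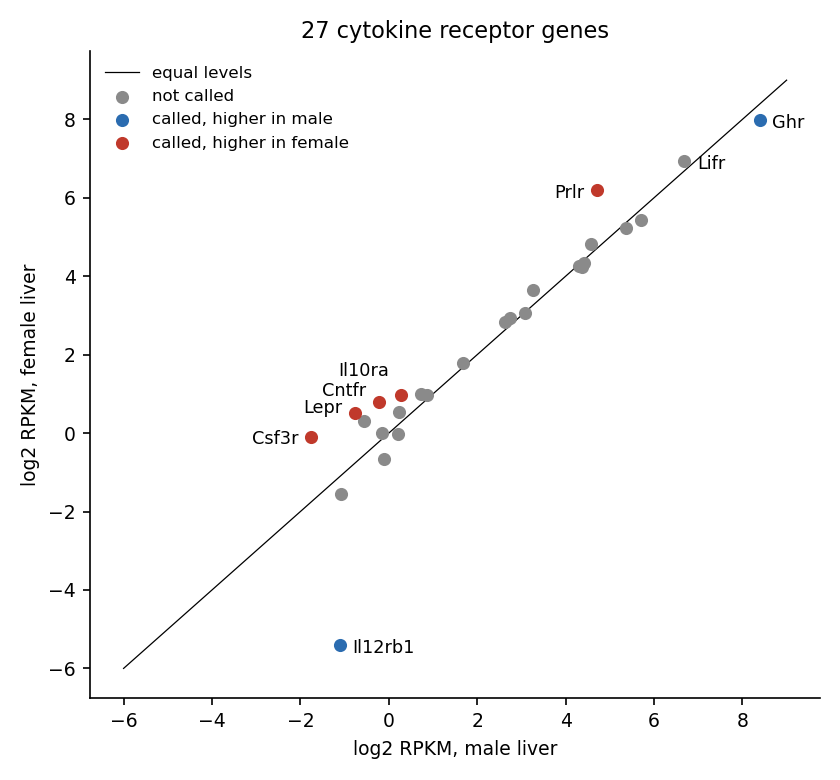
Log2 RPKM in female liver against log2 RPKM in male liver for 27 cytokine receptor genes, with a line of equal levels; coloured points were called. Prlr (4.70 in male, 6.20 in female) stands off the line among the abundant receptors, Ghr lies slightly on its male side, and the other called receptors have a log2 RPKM below 1 in both sexes.

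A short list of genes of the insulin-like growth factor (IGF) axis and of STAT5 targets was also read. Earlier results of these data cover this list too. Igf1, which encodes the hormone that carries much of growth hormone's effect on growth, was not called (log2 RPKM 7.66 in male and 7.94 in female liver, 1.23-fold towards female, adjusted p = 0.116 in the authors' deposited table). Of the other 6 genes, the authors' deposited table gives the higher level to female liver for Cux2 (36.3-fold), Igfbp3 (2.83-fold), Igfbp1 (2.34-fold) and Igfals (1.64-fold). Cux2 encodes a female-specific transcription factor of mouse liver. Igfbp3 and Igfbp1 encode carriers of IGF1, and Igfals encodes a subunit of an IGF1 carrier complex. The same source gives the higher level to male liver for Bcl6, which encodes a repressor that competes with STAT5 (2.20-fold), and Onecut1, a liver transcription factor gene (1.54-fold). So 4 of the 7 genes were called as higher in female and 2 as higher in male liver, against 10.2% and 7.21% of compared genes. The list was chosen with earlier results known, so these counts are a description.

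Ptpn6 is expressed chiefly in blood-derived cells, so markers of such cells were read beside it, against the 10.2% of all compared genes that were called as higher in female liver. By the authors' deposited table, 3 of 5 leukocyte markers, Cd52 (2.71-fold), Laptm5 (1.78-fold) and Ptprc (1.45-fold), had their higher level in female liver. The other members, Coro1a (1.46-fold towards male liver) and Cd53 (1.09-fold towards female liver), were not called, and the summed level was 13.7 RPKM in male and 19.6 RPKM in female liver. Kupffer cells are the resident macrophages. By the authors' deposited table, 4 of their 7 markers, Marco (3.21-fold), Timd4 (1.43-fold), Vsig4 (1.38-fold) and Clec4f (1.33-fold), were likewise higher in females, with summed levels of 149 RPKM in male and 188 RPKM in female liver. Of 7 lymphocyte markers, Nkg7 was called as higher in female liver and the list median was 0.40, towards male liver (summed 3.08 and 4.06 RPKM). The log2 RPKM of Nkg7 was -3.19 in male and 0.74 in female liver, and the female sum includes this gene. Its normalized ratio of -3.93 is identical to its difference of levels, as for Il12rb1, so that ratio has no fixed size. No neutrophil marker of the 3 compared was called (summed 5.58 and 8.77 RPKM), and Mpo lay at the lowest value in both sexes. Elane leaned towards male liver (5.10-fold), and S100a8 (1.66-fold) and S100a9 (1.80-fold) leaned towards female liver. The 1.42-fold difference of Ptpn6 lay within the range of the called leukocyte and Kupffer cell markers. The uncalled Kupffer cell markers Adgre1 (1.28-fold), Csf1r (1.14-fold) and Cd5l (1.11-fold) leaned less towards female liver, as did Cd53, and Coro1a leaned towards male liver. Called stellate cell markers also spanned the value, from Dcn (1.41-fold) to Pdgfrb (1.81-fold). The part of any of these cells in the Ptpn6 difference was not tested. In bulk RNA, fewer cells of a type and less RNA per cell cannot be told apart.

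Among the markers of other non-hepatocyte cells, those called as higher in female liver were 3 of 5 stellate cell markers (Lrat, Pdgfrb and Dcn, summed 92.6 RPKM in male and 124 RPKM in female liver), 1 of 5 endothelial markers (Pecam1, summed 93.9 and 106 RPKM) and 1 of 4 bile duct markers (Sox9, summed 2.57 and 3.6 RPKM). Over all compared genes 10.2% were called as higher in female liver. In lists this short even 1 call exceeds that share, so single calls carry little weight. The 3 of 5 stellate cell calls lie above it too, on few genes. With uncalled markers included, 4 of 5 stellate cell, 4 of 5 endothelial and 3 of 4 bile duct markers leaned towards female liver. The exceptions were Des (1.36-fold), Kdr (1.01-fold) and Krt19 (2.54-fold), which leaned towards male liver and were not called. The part of these cell types in the female-higher values of Lepr and Stat5a was not tested. Hepatocyte markers went both ways, with Apoa1 and Serpina1c higher in male and Alb higher in female liver, and their levels were far above those of every other list, at a sum of 42300 RPKM in male and 58000 RPKM in female liver.

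**Figure D5:**
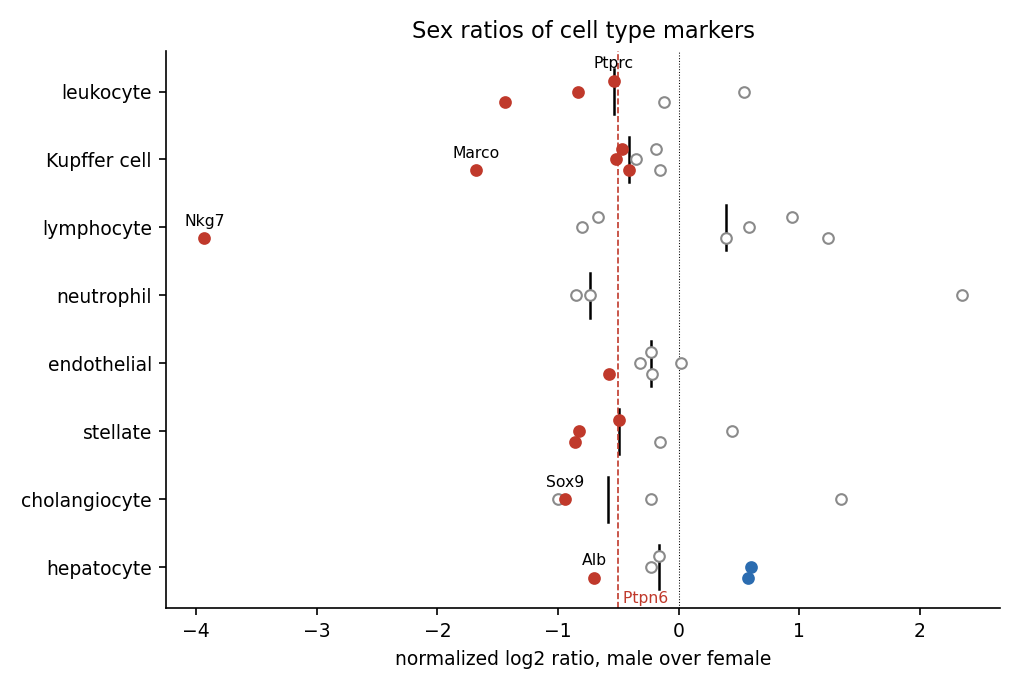
Normalized log2 ratio of male over female for markers of 8 cell types; filled points were called (blue higher in male, red higher in female), vertical bars are list medians and the dashed line marks Ptpn6 at -0.50. The list medians are -0.54 for leukocyte, -0.41 for Kupffer cell, 0.40 for lymphocyte, -0.73 for neutrophil, -0.23 for endothelial, -0.49 for stellate, -0.59 for bile duct (cholangiocyte) and -0.17 for hepatocyte markers. The normalized ratio of Nkg7 is identical to its difference of levels, so its plotted ratio has no fixed size.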

How the data were processed

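Liver RNA of male and female CD-1 mice was sequenced by the authors as 4 pooled libraries, 2 per sex. Per the submitters' processing notes, Bowtie and edgeR were used with the mm9 build; versions, read counting and the method of adjustment are not given in the sources used here. Per the file headers, the deposited table holds log2 RPKM per sex, a normalized log2 ratio of male over female, the same as a linear ratio and as a signed fold score, an adjusted p-value and a flag for liver-expressed genes, set where either sex reaches a log2 RPKM of 1. No value per pool was used here, so the planned test on counts was replaced by the authors' adjusted p-value (under 0.05), and p-values over the lists alone are not given.

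The members and gene lists were chosen with earlier results of these data known. All 10 members are described; from the other lists, called genes and up to 3 of the highest level are named, and called markers are named without their full statistics. Entries with a ratio of 1 and levels differing by 0.389 on the log2 scale (within 0.0015) lie at the floor in both sexes; the adjusted p of 0.026 these entries carry was disregarded. A further 1460 entries above the floor in 1 sex with a ratio of 1, and 15 with a ratio of 1 and no level, were left out. Depth was the median over 1058 olfactory receptor genes at the floor (1 read per span), of which 91.4% lay within 2% of it. Reads per gene used the length of the GENCODE M21 transcript with the same span as the entry, found for 5 members. Intervals of read ratios are exact (Clopper-Pearson, 95%) and scaled by implied depth, so they can be centred elsewhere than the authors' fold. For Il12rb1, whose normalized ratio is identical to its difference of levels, the printed fold uses 14 male reads and a floor of 3 female reads, without an interval. Emr1 in the table was matched to Adgre1 by a RefSeq synonym; Jak3 and Ly6g were not matched. Entry starts were converted to 1-based positions. The code was run on simulated data with a floor of 1 read, counting error only and preset p-values. That run cannot test these assumptions or the calls. Python 3.11.15, numpy 2.4.6, pandas 2.3.3, scipy 1.17.1 and matplotlib 3.10.9 were used. Alternatives were the 0.01 threshold, a fold minimum of 1.5, a liver-expressed filter, the plain difference of levels and centring on the median.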

Additional observations from a re-analysis of the deposited data

How the results depend on the processing

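At an adjusted p under 0.01, 3 of the 10 genes were called (0 higher in male, 3 in female liver), and with a fold of at least 1.5 likewise 3 (0 in male, 3 in female), against 10.2% and 13.4% of compared genes. Of the other pathway genes, 2 of 51 were called at 0.01 (1 in female liver; 10.2% of compared genes), and 0 of 36 with the liver-expressed filter (0 in male, 0 in female; 779 and 895 of 9735 such genes overall), which removes low genes by construction. Each 0 refers to the authors' adjusted p, the only p-value used here. That filter moved the receptor median to -0.60, since it drops Lepr. The plain difference of levels kept the direction of 9 of the 10 ratios and gave 0.00 for Stat5b, which was not called; centring on the liver-expressed median of -0.004 kept all 10. No paired analysis was possible because values are combined per sex; for the same reason no library was left out and no count test was run. Low levels limit Lepr most.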
